A study of Mus musculus with 12 samples.

Results

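Crooke change is the accumulation of keratin filaments in a ring inside corticotrophs, the pituitary cells that release ACTH, under long exposure to glucocorticoid. The transcripts described here are 6 keratins that bear on such filaments, *Krt7*, *Krt8*, *Krt10*, *Krt18*, *Krt19* and *Krt20*, and *Vim*, which encodes the mesenchymal filament protein vimentin. They are 7 of the 55304 gene symbols in the table, taken by symbol, and their values in these libraries were known when they were selected. The set was chosen by its link to Crooke change and, for *Krt19*, selected on its higher normalised counts in DEX than in control pools, so the levels of these 7 genes are given as a description, with no p-value for any of them and with counts of calls that nothing is read from.

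The libraries came from male *Pomc*-eGFP transgenic mice on a C57Bl6/J background, 8 weeks old at the start, in which green fluorescent protein is driven by the *Pomc* promoter. Control mice drank water throughout, DEX mice had the synthetic glucocorticoid dexamethasone at 2.5 µg/ml in their water for 4 weeks up to collection, and the recovery groups had the same DEX treatment followed by 7 or 28 days without it. All 4 groups carry the transgene and were collected at the same time point. Each group had 3 libraries, each made from amplified RNA of fluorescent cells sorted from the pooled anterior pituitaries of 2 to 3 mice.

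Keratins form filaments as pairs of an acidic (type I) and a basic (type II) chain, and the pair of Krt8 and Krt18 is the usual filament of simple epithelia and of endocrine cells. Krt7 is a further type II chain of simple and ductal epithelia, and Krt19 is a small type I chain of ducts and of progenitor compartments. Krt10 is best known from the upper layers of the epidermis and Krt20 from the lining of the gut. Filament amount also depends on translation, phosphorylation and turnover, and only RNA was measured here.

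The values are normalised counts, that is CPM, reads scaled to a common library size that the authors had scaled between libraries. Libraries held 7719894 to 12848078 reads on genes, and 1 read was worth 0.0787 to 0.127 normalised counts. All 7 genes of the corticotroph list, *Pomc* and *Tbx19* among them, had reads in every library. Transcripts of the other hormone cells were abundant too, with a sum over 8 genes, growth hormone and prolactin included, of 113777 to 393053 over the 12 libraries, against 5667 to 286325 for the corticotroph list. The sorted cells were thus not free of RNA from other endocrine cells. In such bulk samples fewer cells of a type and less RNA per cell cannot be told apart.

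*Krt8* (chromosome 15, 101996698 to 102004482, minus strand) and *Krt18* (chromosome 15, 102028180 to 102032027, plus strand) lie head to head on GRCm38, with 23.7 kb between their starts in the GENCODE M21 annotation. *Krt7* lies on the same chromosome at 101411043 to 101430313. *Krt10*, *Krt20* and *Krt19* lie on chromosome 11, at 99385254 to 99389364, 99428403 to 99438150 and 100140810 to 100148665, and *Vim* lies on chromosome 2 at 13573927 to 13582826. The stretches before the starts of *Krt8*, *Krt18* and *Krt10* are shown because the first pair stood higher after withdrawal and the last gene stood lower in DEX. They are from RefSeq on GRCm38.p6, 5′ to 3′ on the strand of the gene, and end where the first annotated exon begins. *Krt8* spans chr15:102004483-102004592 (minus), *Krt18* chr15:102027966-102028179 (plus) and *Krt10* chr11:99389365-99389614 (minus). Capitals mark the TATA box motif and the CCAAT motif, the latter read on the other strand.
Krt8: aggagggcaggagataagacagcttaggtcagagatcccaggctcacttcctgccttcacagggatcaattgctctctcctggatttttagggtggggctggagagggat
Krt18: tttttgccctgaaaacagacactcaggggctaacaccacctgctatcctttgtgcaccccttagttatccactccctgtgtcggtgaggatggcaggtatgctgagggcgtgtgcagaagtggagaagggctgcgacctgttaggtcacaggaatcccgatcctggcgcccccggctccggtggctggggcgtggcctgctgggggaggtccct
Krt10: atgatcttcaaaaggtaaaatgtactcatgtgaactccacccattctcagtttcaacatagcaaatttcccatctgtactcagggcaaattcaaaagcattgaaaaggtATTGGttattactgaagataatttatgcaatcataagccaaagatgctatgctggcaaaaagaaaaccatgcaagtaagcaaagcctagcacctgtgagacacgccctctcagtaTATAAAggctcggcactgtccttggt

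In the windows of 250 bases before the RefSeq start, which were at hand for all of these genes but *Krt19*, both strands were searched for 5 short motifs. RefSeq and GENCODE starts differ for some of these genes. Of the 250 bases, those before the first GENCODE exon numbered 0 for *Vim*, 82 for *Krt7*, 110 for *Krt8* and 214 for *Krt18*. Below, "before" a gene means before its RefSeq start. The core of glucocorticoid receptor sites, AGAACA, was found in 0 of the 6 windows and in 16.1% of 32851 promoter windows of that length. The TATA box motif, TATAAA, was found before *Krt10*, *Krt20* and *Vim* and in 12.4% of all windows. The CCAAT motif was found before *Krt10* and *Vim* and in 33.8% of all windows. The GC box motif, GGGCGG, was found 4 times before *Krt7* and before no other of these genes, and 32.7% of all windows hold it. The AP-1 motif, TGACTCA, was found in none of the 6 windows and in 4.46% of all. None of the motifs was found before *Krt8* or *Krt18*. These matches describe letters in a window and do not show binding.

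The simple epithelial pair made up most of the keratin RNA. *Krt18* and *Krt8* together held 53.2% to 82.8% of the summed normalised counts of the 54 keratins in the table, with the lowest share in DEX pool 3 and the highest in pool 2 at 1 week of recovery. Per kilobase of annotated exon, *Krt18* stood at 48.1 ± 5.25 normalised counts in control and *Krt8* at 15.3 ± 3.07 (SD, n = 3); long alternative exons lower such a value. On the same scale *Krt10* stood at 6.20 ± 1.51, *Vim* at 4.41 ± 1.71 and *Krt7* at 1.39 ± 0.342. *Krt19* and *Krt20* were close to 0 in control. The order of the first 3 genes was therefore *Krt18*, *Krt8* and *Krt10*, while *Krt10* and *Vim* differed by about the size of their SD.

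*Krt8* stood at the control level in DEX and higher 4 weeks after withdrawal. Control pools 1, 2 and 3 held 23.0, 32.7 and 33.9 normalised counts. DEX pools held 30.9, 30.6 and 28.5, inside the control range. The pools held 39.4, 47.4 and 24.7 at 1 week of recovery and 61.7, 46.0 and 39.6 at 4 weeks. All pools at 4 weeks lay above all control pools, and those at 1 week overlapped them. On the log2 scale the fitted differences from control were 0.03 for DEX, 0.28 for 1 week and 0.71 for 4 weeks, each with a standard error of 0.28. In order of mean the groups ran from control and DEX, which were equal to within their spread, to 1 week and then 4 weeks, and the 1 week pools overlapped the groups on either side.

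*Krt18*, the type I partner, was lowest in DEX by mean and highest at 1 week. Control pools held 76.3, 61.3 and 69.7 normalised counts and DEX pools held 60.1, 70.1 and 37.6. The pools held 126, 172 and 54.5 at 1 week of recovery and 137, 91.4 and 90.9 at 4 weeks. All 4 week pools again lay above all control pools, whereas DEX and control overlapped and the 1 week pools reached both above and below every control pool. The fitted log2 differences from control were −0.35 for DEX, 0.62 for 1 week and 0.60 for 4 weeks, each with a standard error of 0.36. The 1 week value was 1.10 without pool 3 of that group and 0.27 without pool 2. Between 4 weeks of recovery and DEX the difference was 0.95 for *Krt18* and 0.69 for *Krt8* on the log2 scale.

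**Figure D1:**
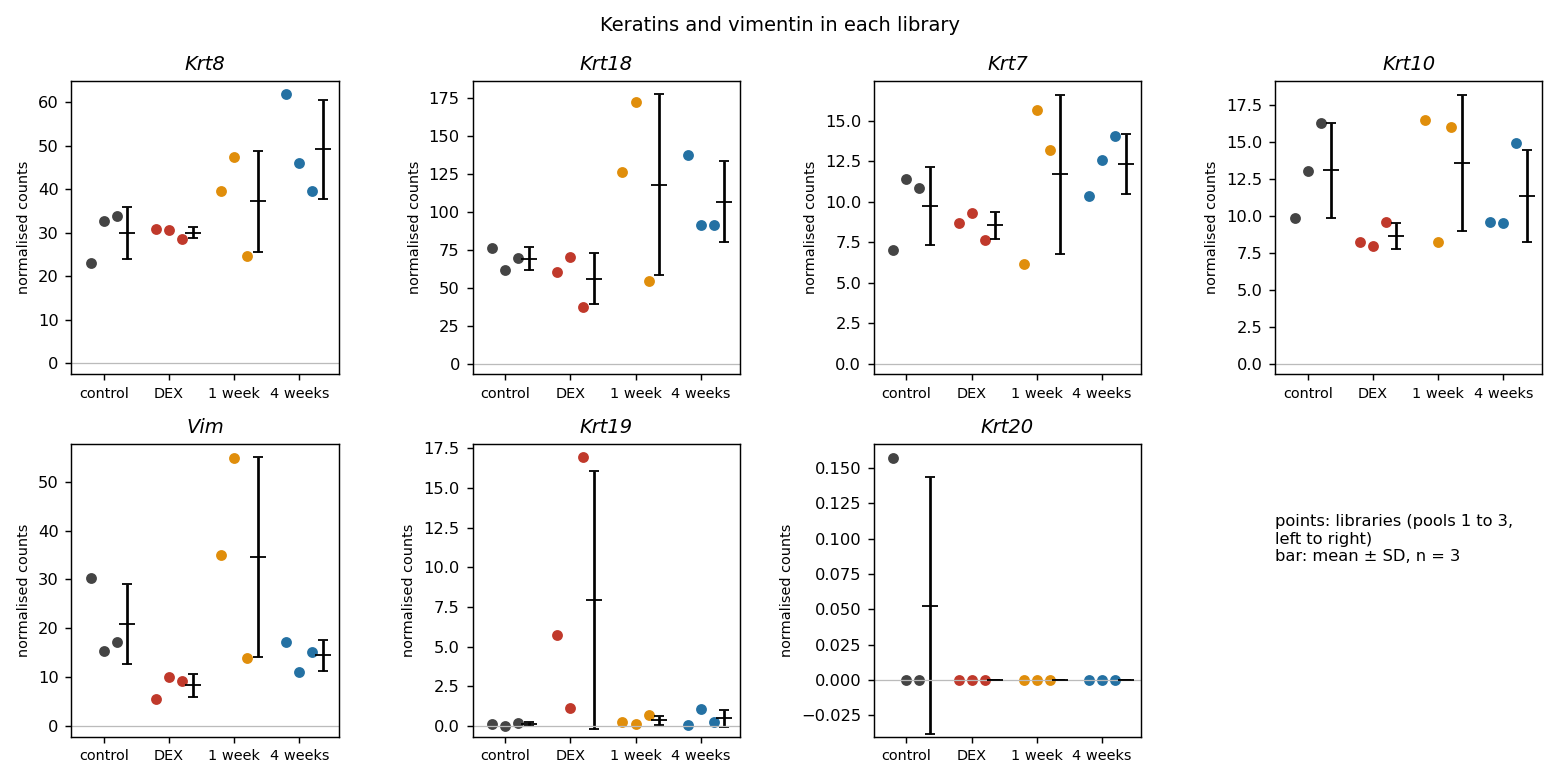
Normalised counts (y axis, linear) of *Krt8*, *Krt18*, *Krt7*, *Krt10*, *Vim*, *Krt19* and *Krt20* by group (x axis); points are libraries, bars are mean ± SD (n = 3). All 4 week pools of *Krt8* and *Krt18* lie above control, all DEX pools of *Vim* and *Krt10* lie below it, and all DEX pools of *Krt19* lie above it with a wide spread.

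The balance between the partners overlapped between all groups. Per kilobase, *Krt18* exceeded *Krt8* in all 12 libraries. The ratio was 3.29 ± 1.08 in control, 2.52 ± 0.672 in DEX, 4.10 ± 0.996 at 1 week of recovery and 2.96 ± 0.219 at 4 weeks (SD, n = 3). It ranged from 1.80 in DEX pool 3 to 4.95 in pool 2 at 1 week, and the range of every treated group overlapped that of control. The levels of both genes at 4 weeks stood higher than in control at a ratio within the control range.

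The pools at 1 week of recovery did not behave as 1 group. Pool 2 was highest and pool 3 lowest for *Krt8*, *Krt18* and *Vim* alike. *Pomc*, the ACTH precursor gene, had the same order, with 149459, 284740 and 43612 normalised counts in pools 1, 2 and 3. The order was not shared by *Krt7*, with 6.18, 15.7 and 13.2, or by *Krt10*, with 16.5, 8.28 and 16.0. The factors that scaled library size were 1.01, 0.702 and 0.993 in pools 1, 2 and 3, and a lower factor raises every value of its pool. The part of *Pomc* level, of cell mix or of this scaling in these differences was not tested.

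**Figure D2:**
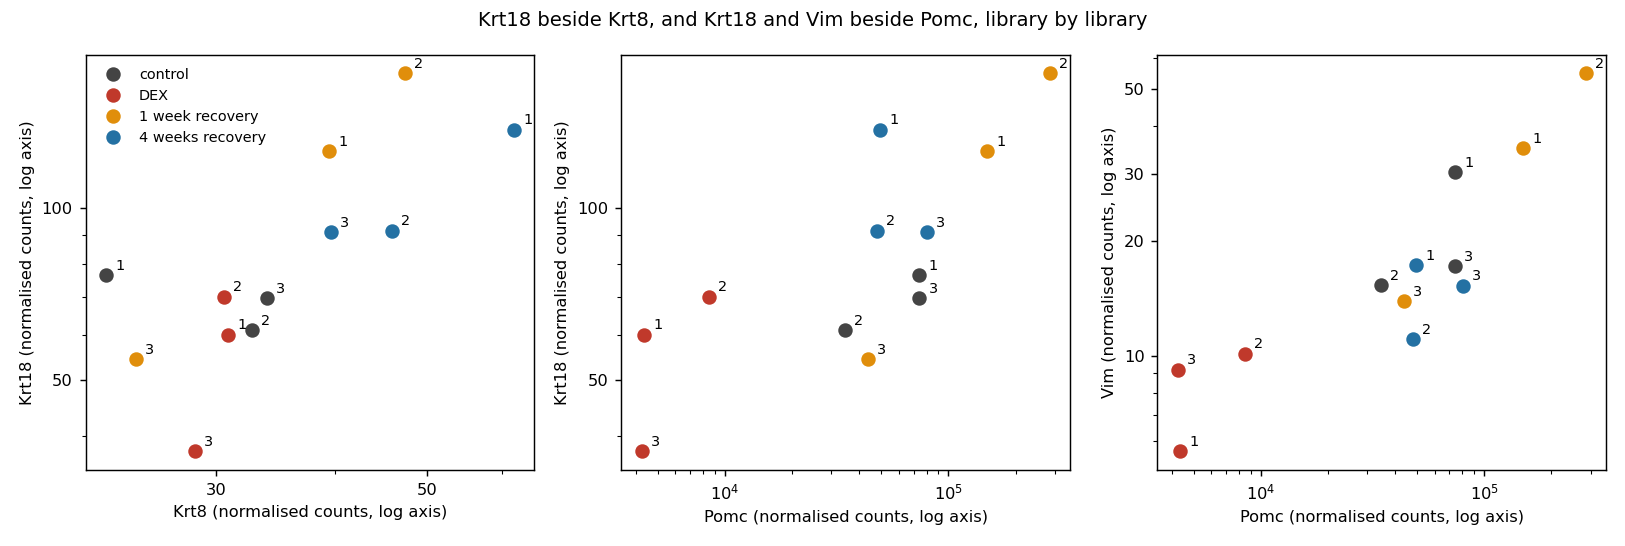
*Krt18* against *Krt8*, *Krt18* against *Pomc* and *Vim* against *Pomc* in normalised counts on log axes; points are libraries, numbered by pool and coloured by group. At 1 week of recovery pools 2, 1 and 3 follow in that order on every axis, and the DEX pools hold the lowest *Pomc* and *Vim*.

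*Krt7* overlapped control in every treated group. Its pools held 7.00, 11.4 and 10.9 normalised counts in control, 8.70, 9.32 and 7.63 in DEX, 6.18, 15.7 and 13.2 at 1 week of recovery and 10.3, 12.6 and 14.1 at 4 weeks. The log2 fold changes were −0.16, 0.19 and 0.35 against control (standard error 0.36), and the 1 week value turned to −0.38 with array weights.

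*Krt10* was lower in every DEX pool than in any control pool, by a narrow margin. Control pools held 9.91, 13.1 and 16.3 normalised counts and DEX pools held 8.28, 8.01 and 9.64. The highest DEX pool and the lowest control pool were thus 9.64 and 9.91. At 1 week of recovery the pools held 16.5, 8.28 and 16.0, and at 4 weeks 9.61, 9.52 and 15.0, both groups overlapping control and DEX alike. The log2 fold change was −0.57 in DEX (standard error 0.34), 0.02 at 1 week and −0.21 at 4 weeks.

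*Vim* had the lowest fitted fold change in DEX among these genes. Control pools held 30.2, 15.3 and 17.2 normalised counts and DEX pools held 5.63, 10.1 and 9.20, all below control. At 1 week of recovery the pools held 35.0, 54.8 and 13.9, from below the lowest to above the highest control pool. At 4 weeks they held 17.3, 11.1 and 15.2, overlapping control and all above the DEX pools. The log2 fold change was −1.30 in DEX (standard error 0.44), 0.58 at 1 week and −0.48 at 4 weeks. The 1 week value was 1.13 without pool 3 and 0.14 without pool 2. Vimentin is abundant in endothelial cells, fibroblasts and leukocytes, and the markers of these cells are set beside it further on.

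*Krt19* was the only one of these genes whose DEX pools all lay above control. Control pools held 0.157, 0 and 0.217 normalised counts, which are 2, 0 and 2 reads. DEX pools held 5.72, 1.14 and 16.9, a 14.8-fold spread within 1 group. The reads of the group summed to 234 in DEX, 151 of them from pool 3, and to 4 in control, a ratio of 53.5. Its exact 95% interval of 20.6 to 198 covers counting error in the summed reads only. It leaves out the spread between pools, and the gene was selected on this difference. After withdrawal the pools held 0.285, 0.127 and 0.667 at 1 week and 0.0924, 1.09 and 0.271 at 4 weeks. These are 10 and 14 reads, with ratios to control of 2.78 (0.801 to 12.1) and 3.43 (1.08 to 14.3) on the same count. Most of the 4 week reads, 10 of them, came from pool 2, and these intervals too leave out the spread between pools. The fitted log2 fold change in DEX was 4.63 (standard error 0.94) and depends on the pseudocount. Per kilobase, the DEX mean of *Krt19* was 4.28 ± 4.38 (SD, n = 3), close to that of *Krt10* in DEX at 4.09 ± 0.414 and below that of *Krt8* at 15.3 ± 0.669.

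*Krt20* had 2 reads in control pool 1 and 0 reads in each of the other libraries. A count of 0 allows up to 3 reads, or 0.236 to 0.382 normalised counts depending on the library, so *Krt20* was not detectable at this depth and no fold is given. It was the 1 gene of the 7 that did not reach the filter of more than 0.1 in at least 3 libraries.

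**Figure D3:**
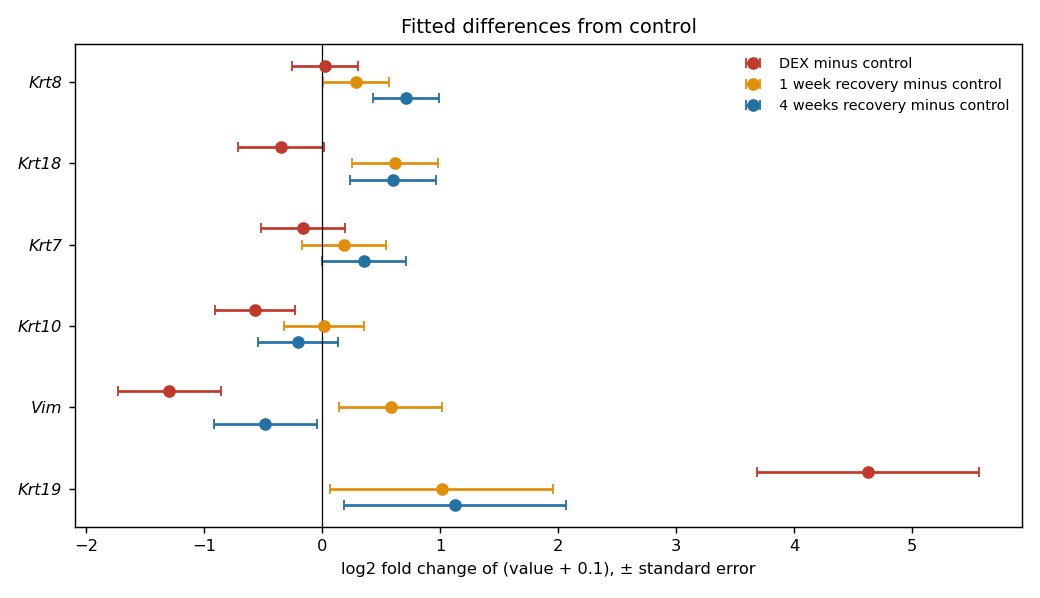
Fitted log2 fold changes of (value + 0.1) against control (x axis) for *Krt8*, *Krt18*, *Krt7*, *Krt10*, *Vim* and *Krt19* (y axis); points are estimates of a limma fit over all 12 libraries, bars ± 1 standard error, colours the 3 comparisons. *Krt19* in DEX stands at 4.63 and *Vim* in DEX at −1.30, and the other estimates lie between −0.57 and 1.13.

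The 3 comparisons with control share their control pools, and the genes above were selected with these values known, so the following counts describe them and nothing is read from them. Pools did not overlap control for *Krt19* on the higher side in DEX (1 of 6 tested, against 6.61% of all genes) and for *Krt10* and *Vim* on the lower side (2 of 6, against 6.23%). At 1 week of recovery the counts were 0 higher and 0 lower, against 3.47% and 2.61% of all genes. At 4 weeks 2 of 6 were higher, *Krt8* and *Krt18*, against 6.77%, and 0 were lower, against 6.42%. In limma's F test over the 4 groups, 0 of the 6 had an adjusted p under 0.05, against 0.315% of 24736 genes tested. With an unadjusted p under 0.05 there were 3, against 9.21%. By single contrasts against control 0 passed too, against 0.121% in DEX, 0% at 1 week and 0% at 4 weeks. The F test count was 1 with edgeR's quasi-likelihood test and 2 with edgeR's likelihood ratio test, with DESeq2 and with array weights. It was 1 without pool 3 of the 1 week group. In the DEX contrast the count was 1 in the same 4 alternatives, without DEX pool 2 and without pool 3 of the 1 week group.

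The rest of the keratin family was taken by name and tested. Of 48 further keratins, 19 had no read in any library, 13 had some reads but did not reach the filter, and 16 were tested. None passed: limma's F test called 0 of the 16, with 0 at an unadjusted p under 0.05, beside 0.315% and 9.21% of all genes. Also at 0 were edgeR's quasi-likelihood test, its likelihood ratio test and DESeq2. The 5 with the highest mean were *Krt17*, *Krt1*, *Krt222*, *Krt80* and *Krt14*, of which the first 3 had more than 1 normalised count in all 12 libraries. *Krt17*, a type I keratin of basal and injured epithelium, ranged from 1.00 to 19.0 with no order by group (adjusted p = 0.932, limma F test).

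*Krt1*, the type II partner of Krt10 in epidermis, stood between 3.06 and 7.07 in all libraries (adjusted p = 0.988, limma F test). *Krt222*, a keratin-like gene, stood between 2.44 and 6.94 (adjusted p = 0.86). *Krt80* was the 1 tested keratin of this family whose 4 week pools, at 2.22, 4.38 and 2.08, lay above all control pools, at 0.708, 1.88 and 1.41 (adjusted p = 0.586, limma F test). That is 1 of 16, where 6.77% of all genes did so. *Krt14*, a type I keratin of basal epithelium, had its highest value, 4.93, in DEX pool 3, the pool that also held the most *Krt19* (adjusted p = 0.911). The same pool had the lowest *Krt17* of the DEX group, at 1.91. *Krt5*, the usual partner of Krt14, had 8 reads in all libraries together. The processed pseudogene *Krt8-ps* had at most 0.673 normalised counts in any library, little beside *Krt8*, though reads shared between near-identical copies may be lost to the mapping filter.

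**Figure D4:**
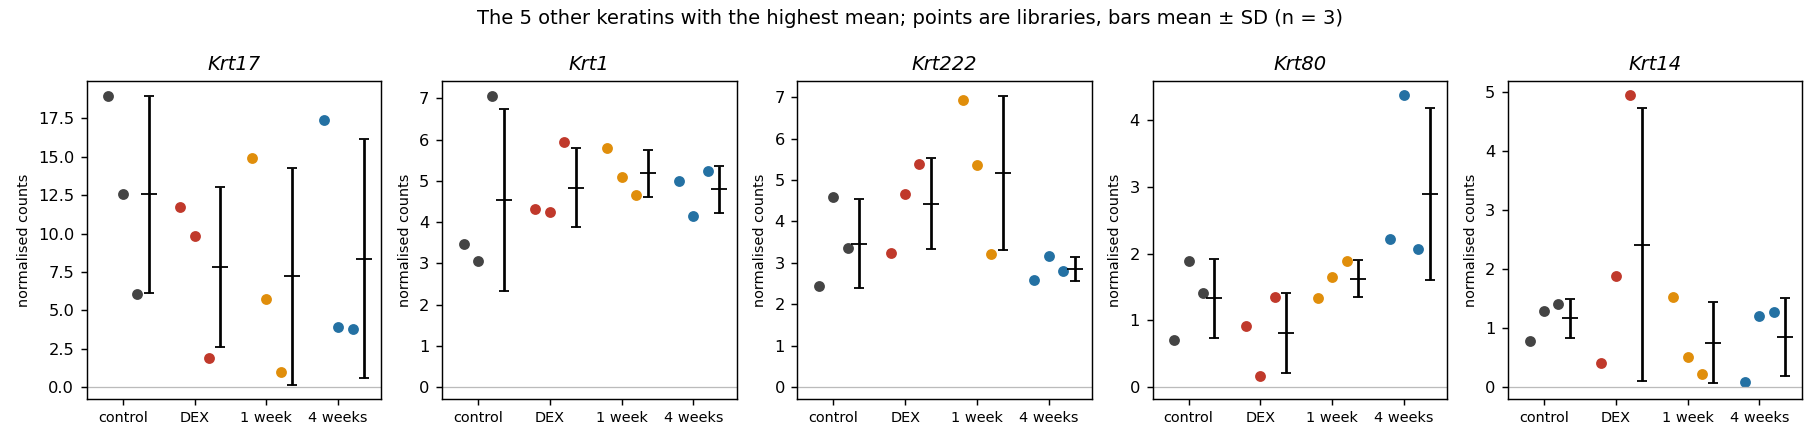
Normalised counts (y axis, linear) of *Krt17*, *Krt1*, *Krt222*, *Krt80* and *Krt14* by group (x axis); points are libraries, bars mean ± SD (n = 3). The treated groups overlap control except for *Krt80*, whose 4 week pools lie above control.

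Genes that tie keratin filaments to cell junctions and to each other were taken as a list of 14, all tested. In the F test 0 of the 14 passed, beside 0.315% of all genes, and 5 had an unadjusted p under 0.05, beside 9.21%. Their median log2 fold change in DEX was 0.23, beside −0.02 over all genes, and −0.03 at 4 weeks, beside 0.00. The gene that passed a contrast was *Eppk1*, which encodes epiplakin, a plakin that bundles keratin filaments. It held 4.17, 3.65 and 6.52 normalised counts in control and 11.3, 9.73 and 9.87 in DEX. At 1 week it held 4.75, 3.44 and 3.67, and at 4 weeks 4.25, 2.08 and 2.98. All DEX pools lay above every other library. The difference between 4 weeks of recovery and DEX was −1.75 on the log2 scale (standard error 0.39, adjusted p = 0.0471, limma), a contrast in which 0.873% of all genes passed. Its difference between DEX and control was 1.13 (adjusted p = 0.473). The call was lost in 8 of 12 fits with a library removed, namely control pool 1, pool 1 of the 1 week group, or any pool of the DEX or 4 week groups, and without a filter on low values.

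Other filament and epithelial genes gave no such call. The shares over all genes, to set beside the counts that follow, were 0.315% past the F test and 9.21% at an unadjusted p under 0.05. Of 12 other intermediate filament genes, among them desmin, nestin, the neurofilaments and the lamins, 0 passed the F test and their median log2 fold change was 0.02 in DEX and 0.01 at 4 weeks. Of 10 genes that handle misfolded or aggregated protein, such as *Sqstm1* and the small heat shock genes *Hspb1* and *Cryab*, 0 passed the F test and 1 had an unadjusted p under 0.05. Of 15 genes of the epithelial programme, such as *Epcam* and *Cdh1*, 0 passed and 1 had an unadjusted p under 0.05. That gene, *Esrp2*, had a log2 fold change of 1.41 in DEX. The median of the 15 was −0.28 in DEX, where 2 were above 0, and 0.21 at 4 weeks. Their summed level lay between 1407 and 1460 in DEX and between 1742 and 2360 in control, without overlap, and reached 1921 to 2081 at 4 weeks. Gene by gene, the DEX pools of 3 lay below all control pools and those of 1 above, beside 6.23% and 6.61% of all genes.

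Summed markers of other cell types are set beside *Vim*, *Krt8* and *Krt18*. The summed level of 10 endothelial markers was 10.9 to 83.3 in control, 7.29 to 13.7 in DEX, 33.0 to 209.8 at 1 week and 88.8 to 171 at 4 weeks. For 10 markers of fibroblasts and pericytes it was 98.7 to 162 in control, 78.5 to 121 in DEX, 90.1 to 236 at 1 week and 194 to 307 at 4 weeks. Most of that sum was *Col1a2*, at 91.9, 130 and 127 in control pools and 114, 110 and 75.9 in DEX pools. Its log2 fold change in DEX was −0.22, beside a median of −1.54 over the 10 genes. For 10 markers of macrophages and leukocytes the summed level was 63.1 to 147 in control, 28.7 to 42.8 in DEX, 106 to 179 at 1 week and 111 to 246 at 4 weeks. Much of that sum was *Cd74*, with a mean of 58.6 in control and 6.19 in DEX, where the sum had means of 93.7 and 37.6. Of the 10 genes 2, *Csf1r* and *Lyz2*, had a log2 fold change above 0 in DEX. Of the endothelial markers, *Cdh5*, *Emcn* and *Tie1* each had no read in 1 DEX pool and *Cldn5* in 2, and all 10 had reads in every other library. These 3 sums were higher in every 4 week pool than in any DEX pool. The sum of 4 melanotroph genes was 88.3 to 97.3 in control and 43.5 to 61.7 in DEX, without overlap. It was 112, 165 and 58.5 in pools 1, 2 and 3 at 1 week, the pool order of *Vim*, *Krt8* and *Krt18*, and 87.5 to 101 at 4 weeks. Of these genes *Pax7*, the melanotroph-defining factor, had no read in 7 of the 12 libraries. Most of the lower sum in DEX was *Esm1*, with a mean of 37.4 in control and 3.42 in DEX, where the sum had means of 92.7 and 52.5. The log2 fold change in DEX was 0.01 for *Pax7*, −0.14 for *Pcsk2* and −0.93 for *Oacyl* (standard errors 0.77, 0.33 and 0.99). As a description, Pearson's r on the log2 scale with the endothelial, fibroblast, leukocyte and melanotroph sums was 0.19, 0.09, 0.47 and 0.87 for *Vim*. For *Krt8* it was 0.51, 0.50, 0.53 and 0.56, and for *Krt18* 0.36, 0.40, 0.56 and 0.75. With *Pomc* it was 0.88 for *Vim*, 0.40 for *Krt8* and 0.76 for *Krt18*. With *Tbx19*, also of the corticotroph list, it was −0.13, −0.20 and −0.23 in that order. With the factor that scaled library size it was −0.64, −0.50 and −0.61. The part of any of these cell types in the levels of *Vim*, *Krt8* and *Krt18* was not tested.

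Over all 13 lists, 5 of 125 genes tested passed the F test over the 4 groups, beside 0.315% of all genes. The lists were drawn up with earlier results of these data known, so nothing is read from that difference in share. *Kdr* and *Emcn*, an endothelial receptor and sialomucin, had adjusted p of 0.0263 and 0.0422, and the collagen gene *Col3a1* had 0.00899 (limma). *Cd74*, the invariant chain of antigen-presenting cells, had 0.0018 and a log2 fold change of −3.17 in DEX (adjusted p = 0.0145, limma). *Esm1*, listed with the melanotroph genes, had 0.0454 and −3.45 in DEX (adjusted p = 0.0302). Between 4 weeks of recovery and DEX *Tie1* and *Plvap* (adjusted p = 0.0264 and 0.029), *Pdgfrb* (adjusted p = 0.0194) and *Tshb*, the thyrotrophin subunit gene (adjusted p = 0.029), passed as well, all higher at 4 weeks. Between 1 week and DEX *Kdr*, *Col3a1* and *Cd74* passed, where 0.433% of all genes did. The F test count of 5 lay between 1 and 9 with each library left out, being 1 without DEX pool 3, 2 without DEX pool 1 or without pool 1 or 2 of the 4 week group, 3 without control pool 2 or pool 3 of the 4 week group, and 9 without pool 3 of the 1 week group.

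*Krt19* is also a marker of duct-like and progenitor cells, so stem and ciliated cell genes are given beside it. The 10 stem and folliculostellate genes, such as *Sox2* and *Sox9*, summed to 540, 529 and 549 normalised counts in DEX pools 1, 2 and 3, where *Krt19* stood at 5.72, 1.14 and 16.9. They summed to 249 to 541 in control and to 662 to 782 at 4 weeks. The part of such cells in the level of *Krt19* was not tested. The F test called 0 of the 10 stem genes, with 3 at an unadjusted p under 0.05, beside 0.315% and 9.21% of all genes. Their median log2 fold change was 0.01 in DEX and 0.85 at 4 weeks. The list was split in DEX, with 5 of the 10 above 0. *Lcn2* (1.11) and *Cyp2f2* (1.01) were among these, whereas *Sox2* (−0.34) and *Sox9* (−0.79) were below 0. The 10 ciliated cell genes summed to 101 to 133 in control and 127 to 191 in DEX, and 0 were called, with 0 at an unadjusted p under 0.05.

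**Figure D5:**
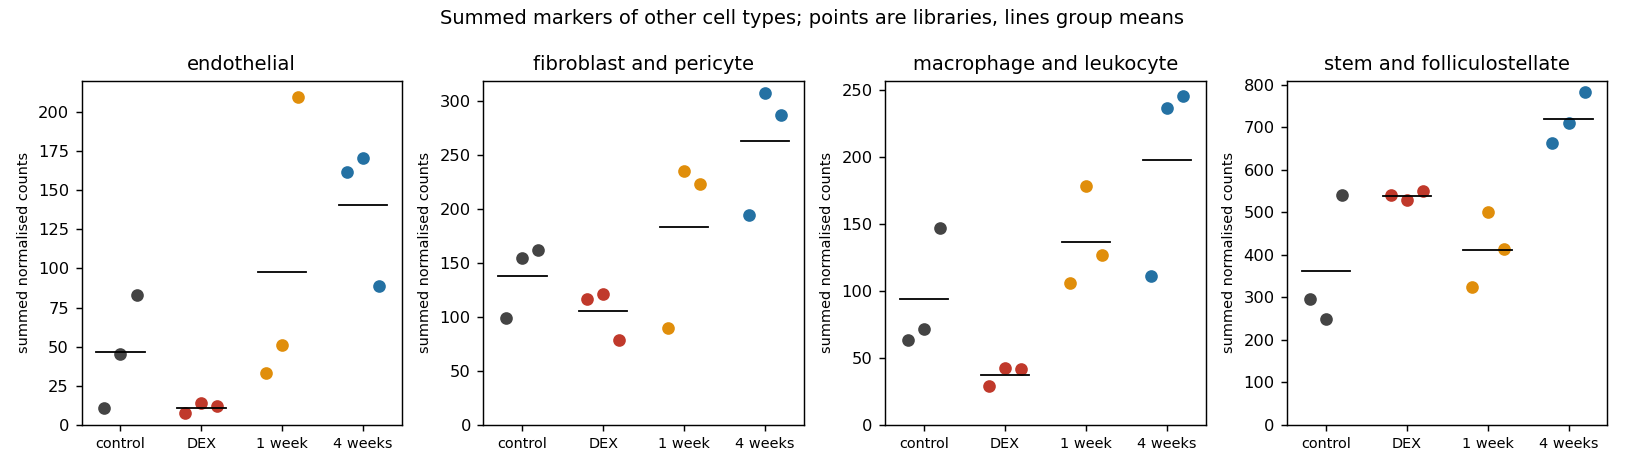
Summed normalised counts (y axis, linear) of marker lists for endothelial cells, fibroblasts and pericytes, macrophages and leukocytes, and stem and folliculostellate cells by group (x axis); points are libraries, lines group means. The first 3 sums are lower in DEX than at 4 weeks of recovery in every pool, and the stem sum lies between 529 and 549 in all DEX pools.

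For each gene above 1 normalised count in at least 6 libraries, the 3 most similar profiles over the 12 libraries were taken by Pearson's r on the log2 scale among 15507 genes. These are the highest of many values over points that share group, depth and cell mix, and serve as a description. For *Krt8* they were *Epha10* (r = 0.93), *Evc* (r = 0.90) and *Dkk3* (r = 0.88), and for *Krt18* they were *Jade1* (r = 0.92), *Ube2t* (r = 0.91) and *Itgal* (r = 0.89). For *Krt7* they were *Gpr12* (r = 0.96), the collagen gene *Col1a2* (r = 0.94) and the prolactin gene *Prl* (r = 0.91). *Prl* ranged from 31498 to 119783 normalised counts. For *Krt10* they were *Fam229b* (r = 0.94), *Bcl2l14* (r = 0.89) and *Sat2* (r = 0.87), and for *Vim* they were *Dph3* (r = 0.94), *Dock8* (r = 0.92) and *Tbrg1* (r = 0.92). *Krt19* and *Krt20* did not reach the level set for this comparison.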

How the data were processed

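Anterior pituitary cells positive for eGFP were sorted from pools of mice, and their RNA was amplified (SMART-V4) and sequenced on 1 lane. The authors trimmed reads with Trim Galore 0.6.5, aligned them to GRCm38 (Ensembl 98) with STAR 2.7.1a and counted read pairs of mapping quality 20 or more on the reverse strand with featureCounts 2.0.0. The deposited values are a signal per gene, CPM on a library size scaled by edgeR's TMM factors. Divided by the value of 1 read, 100% of the 271881 values above 0 were whole to within 0.001, so whole reads could be recovered.

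The design had assumed plain CPM, and its limma test was kept. Groups came from the sample labels. Genes above 0.1 in at least 3 libraries (24736) were fitted on log2(value + 0.1) with limma 3.58.1 in R 4.3.3 (lmFit, eBayes with trend), all 12 libraries in 1 model without covariates, with an F test for any difference among the 4 groups, 5 contrasts and Benjamini-Hochberg adjustment over all genes. A fold change on this scale understates that of low genes. Alternatives included edgeR 4.0.16 and DESeq2 1.42.0 on the recovered reads. The fit was checked on simulated data.

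The 7 genes and all gene lists were chosen with earlier results of these data known. Besides the 7, the text names any further keratin past a test and the 5 with the highest mean, up to 4 genes per list past the F test or a contrast, the 3 most similar profiles per gene, and *Krt80*, *Krt5* and *Krt8-ps* in part after their values were seen. p-values measure the spread between pools, each of several mice. Without molecular identifiers, intervals cover counting error only. Sequences are from RefSeq (GRCm38.p6) and coordinates of genes from GENCODE M21.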

Additional observations from a re-analysis of the deposited data

How the results depend on the processing

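The 18 log2 fold changes of the 6 tested genes against control were recomputed under 25 alternatives, the fits that each left out 1 library included. Of 450 values, 3 moved by more than the spread between replicates: *Krt19* in DEX fell from 4.63 to 3.19 and 2.51 with pseudocounts of 0.5 and 1, and *Krt7* at 1 week turned from 0.19 to −0.38 with array weights. Signs also changed for *Krt8* in DEX (−0.15 without control pool 1 to 0.13 without control pool 3) and *Krt10* at 1 week (−0.17 without control pool 1 to 0.34 without pool 2 of the 1 week group). The cause was not tested.

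Of the 6 genes, 0 passed the F test. The count was 2 with array weights, edgeR's likelihood ratio test and DESeq2, 1 with edgeR's quasi-likelihood test, and 0 to 1 with each library left out. In the DEX contrast it was 0, and 1 in each of those 4 alternatives, and 0 to 1 with each library left out. Among the other keratins it was 0 in every alternative, for the F test and the DEX contrast. The calls in the neighbouring lists were examined in alternatives added after the data were seen. Their F test count of 5 became 3 without a filter on low values, 34 with array weights, 39 with the likelihood ratio test and 28 with DESeq2, and 1 to 9 with each library left out. The linker genes called between 4 weeks and DEX, 1 gene, became 0 without a filter, 4 with array weights, the likelihood ratio test and DESeq2, and 0 to 2 with each library left out. Over all genes the F test called 78, and 1069 with array weights, 158 with the quasi-likelihood test, 1043 with the likelihood ratio test, 734 with DESeq2, 7 without DEX pool 3, 12 without DEX pool 1 and 186 without pool 3 of the 1 week group.

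Pools share replicate numbers across groups. With the replicate block the counts were 0 of the 6 genes, 0 other keratins, 5 list genes and 1 linker gene, and over all genes 85. Deviations of same-numbered pools from their group means correlated from −0.294 to 0.397 (7 of 18 over 0.1), and those of other pairs from −0.273 to 0.382. Whether same-numbered pools shared a step of handling cannot be told from these ranges. With 3 pools a group and reads amplified from little RNA, differences at the level of *Krt19* in control or of *Krt20* rest on a few reads.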
